A study of Carya illinoinensis with 18 samples.

Results

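*CiPaw.11G071800* is the clade III member of the calcineurin B-like (*CBL*) genes of pecan, and the only *CBL* gene of that clade. It is 1 row, CIL1012S0079, of the 31074 genes in the deposited expression table. The table holds no CiPaw names, and this row was identified with the gene through its day means, so those means are not independent of the name. The gene was chosen by its clade, with its increase under drought already known. Leaves came from grafted seedlings of the pecan cultivar Pawnee, kept in a growth chamber and given no water for 0, 3, 6, 9, 12 or 15 d. All groups therefore share the cultivar, the graft and the chamber, and the only difference stated between them is the time without water. Each day had 3 libraries, 18 in all, and each library was made from the leaves of several plants. The 0 d libraries were the controls, and watered plants of the later days were not among the libraries analysed here, so the time without water and the days spent in the chamber cannot be told apart.

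CBL proteins are plant calcium sensors. They bind Ca2+ through EF-hand motifs and then attach to the NAF domain of CBL-interacting protein kinases (CIPKs), which releases the kinase to act on its targets. In *Arabidopsis*, CBL-CIPK pairs regulate ion channels and transporters during salt stress, potassium shortage and water loss. The drought series asked how the *CBL* and *CIPK* genes of pecan leaves change as water runs out. By its name, *CiPaw.11G071800* lies on chromosome 11, and its position and exons were not used here. The primer pair is shown as listed for the gene. The same letters stand beside *CiPaw.11G207000* and *CiPaw.12G140900* in the primer list of the study. The pair was not aligned to any gene sequence here, so which of these genes it matches is not known. Each primer has 21 bases, read 5′ to 3′.
*CiPaw.11G071800* forward primer: ggaggtgaagcaaatggtagt
*CiPaw.11G071800* reverse primer: agcttcctcaaaggtcttgtc

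The table gives FPKM, the fragments of a gene scaled by its transcript length and by all mapped fragments of the library, so that levels can be compared between genes per length. Summed over all genes, FPKM lay between 545598 and 587063 per library. Read counts were not used, and the depth of the shallowest library, estimated from the steps between low values, was 0.727 of that of the deepest. Over all genes, 8 of the 18 libraries correlated best with a library of their own day and 10 with a library of another day. The library of 9 d replicate 1 stood apart from its day. Its correlation of log2(FPKM + 1) was 0.983 with 12 d replicate 1, against 0.879 and 0.917 with the other libraries of 9 d. Other libraries stood apart from their days as well. For 12 d replicate 2 the correlations were 0.862 and 0.919 within its day, against 0.965 with 9 d replicate 3. For 3 d replicate 2 they were 0.879 and 0.893 within its day, against 0.970 with 0 d replicate 3. Results in which 9 d replicate 1 takes part to a large degree are also given without it. The identifiers of the table are not paired with gene names, so leaf markers were not checked.

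*CiPaw.11G071800* increased as the drought went on, and its mean was 2.93 times as high at 15 d as at 0 d. Its FPKM was 7.41, 10.22 and 7.90 at 0 d, and 7.74, 7.92 and 9.22 at 3 d. It was 9.06, 11.97 and 11.75 at 6 d, and 21.94, 13.67 and 12.10 at 9 d. It was 23.50, 18.88 and 18.86 at 12 d, and 22.66, 28.36 and 23.79 at 15 d. The libraries of 3 d and 6 d overlapped those of 0 d, whereas every library of 9 d, 12 d and 15 d lay above every library of 0 d. Of the 24443 genes tested, 27% were separated from 0 d in this way by 9 d, with 23.5% for 12 d and 28.1% for 15 d. The libraries of 12 d and 15 d overlapped, because 12 d replicate 1 was higher than 15 d replicate 1. The value of 9 d replicate 1 lay among those of 12 d. Without it the mean of 9 d was 12.9 FPKM (n = 2), and both remaining libraries still lay above every library of 0 d. In leaf tissue, more cells that express the gene and more transcript per cell cannot be told apart.

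**Figure D1:**
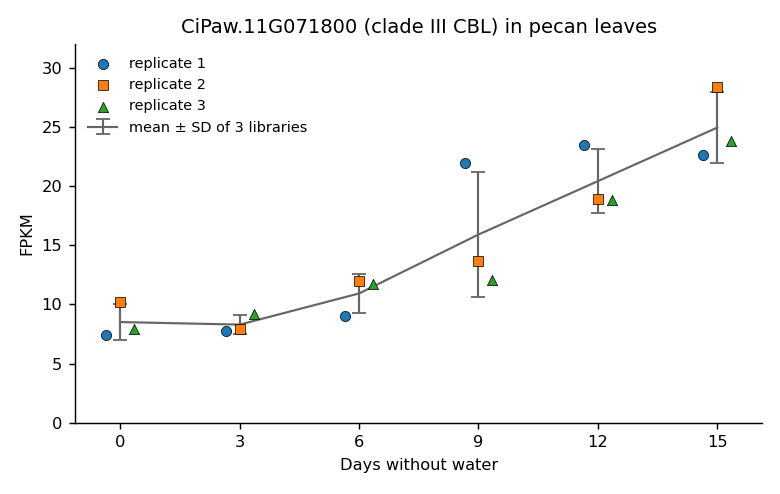
FPKM of *CiPaw.11G071800* (y axis) in each of 18 leaf libraries against days without water (x axis); the line and bars give the mean ± SD of 3 libraries per day. The points of 0 d and 3 d lie between 7.41 and 10.22 FPKM, those of 15 d lie between 22.66 and 28.36 FPKM, and 9 d replicate 1, at 21.94 FPKM, lies far above the other points of its day.

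Each later day was set against 0 d by a limma fit of log2(FPKM + 1). Adjustment followed Benjamini-Hochberg over the 24443 genes, and the call threshold was 0.05. The gene was not called at 3 d (log2 fold change -0.03, standard error 0.20, adjusted p = 0.986) or at 6 d (0.33, adjusted p = 0.296), and 0.0286% and 13.9% of all genes were called on these days. The 95% interval of the log2 fold change was -0.45 to 0.40 for 3 d and -0.10 to 0.76 for 6 d. From 9 d on *CiPaw.11G071800* was called as higher. Its log2 fold change on that day was 0.80 (95% interval 0.37 to 1.22, adjusted p = 0.0122), where 15.6% of all genes were called as higher. At 12 d the log2 fold change was 1.18 (95% interval 0.75 to 1.60, adjusted p = 0.00102), and 17.8% of all genes were called as higher. At 15 d it was 1.45 (95% interval 1.03 to 1.88, adjusted p = 4.35e-05), against 22.1% of all genes called as higher. A moderated F-test over all days gave an adjusted p of 1.23e-04 for the gene, and 57.8% of all genes were called by it. The call at 9 d was lost without 9 d replicate 1 (log2 fold change 0.56, adjusted p = 0.0556), without 0 d replicate 1 (0.71, adjusted p = 0.0600), after median-ratio scaling of the libraries (0.67, adjusted p = 0.0559) and when only the libraries of 0 d and 9 d were fitted (adjusted p = 0.0808). Over all alternatives at 9 d the adjusted p ranged from 0.0102 to 0.0808, and the calls at 12 d and 15 d were kept under every alternative tried.

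No single step of 3 d was called. The log2 fold change of 6 d over 3 d was 0.35 (adjusted p = 0.363) and that of 9 d over 6 d was 0.47 (adjusted p = 0.718). For 12 d over 9 d it was 0.38, with an adjusted p of 1.0, and for 15 d over 12 d it was 0.28, with an adjusted p of 0.354. All 4 of these values were positive, and their 95% intervals included 0 except for 9 d over 6 d (0.04 to 0.90, unadjusted p = 0.0336). Without 9 d replicate 1 the value of 9 d over 6 d was 0.23 and that of 12 d over 9 d was 0.62 (adjusted p = 0.324). Over all genes, limma called 5.02% of genes for the step to 6 d, 0.00409% for that to 9 d and 20.3% for that to 15 d. The step to 12 d gave calls for 0 of 24443 genes, 465 of which passed 0.05 before adjustment.

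Relative to the other genes of the table in the same library, the gene moved up. Of all 31074 genes, between 84.4% and 87.3% had a lower FPKM in the same library at 15 d, and between 61.6% and 67.3% at 0 d. These shares count genes at 0 FPKM, among them 3850 genes with 0 FPKM in every library. At 9 d this share was 81.7% in replicate 1, against 70.2% and 68.4% in the other libraries. These ranks do not depend on a scaling factor between libraries. Over all genes, the log2 fold change at 15 d had a median of -0.24 on the deposited scale. Median-ratio scaling moved it to -0.03 and that of *CiPaw.11G071800* to 1.80. At 15 d, 90.1% of the genes tested had a smaller log2 fold change than this gene. Differences between days made up 87.5% of the sum of squares of its FPKM, against a median of 64.3% over the 20236 genes that averaged 1 FPKM or more, and 92.8% of these genes had a smaller share. Without 9 d replicate 1 the share was 94.0%, against a median of 68.6%.

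Among the *CBL* genes, *CiPaw.11G071800* had the highest level after 12 d and 15 d and a middle level at 0 d. With it, 8 *CBL* genes could be assigned to rows of the table, all by their day means, and *CiPaw.10G083600* was not analysed here. At 0 d its mean of 8.51 ± 1.50 FPKM (SD, n = 3) ranked 5 of 8. It lay below *CiPaw.12G140900* (clade IV), with 16.6 ± 0.754 FPKM (SD, n = 3), and above *CiPaw.09G110800* (clade IV), with 4.44 ± 0.0503 FPKM (SD, n = 3), and it overlapped neither of them. At 3 d it again ranked 5 of 8, below *CiPaw.02G141200* (clade I) and above *CiPaw.09G110800*, and overlapped neither. At 6 d it ranked 4 of 8, and its libraries overlapped those of *CiPaw.02G141200* just below it. At 9 d it ranked 2 of 8, with 15.9 ± 5.29 FPKM (SD, n = 3) against 16.2 ± 2.16 FPKM (SD, n = 3) for *CiPaw.11G207000* (clade IV), and the ranges of the 4 highest genes overlapped from each to the next. That rank rested on replicate 1. Without this library the gene ranked 4 of 8, with a mean of 12.9 FPKM, below *CiPaw.11G207000*, at 17.1 FPKM, *CiPaw.02G141200* and *CiPaw.12G140900* (n = 2 each).

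At 12 d and 15 d the gene was the first of the 8, and its lowest library lay above the highest library of every other assigned *CBL* gene. It had 20.4 ± 2.67 FPKM at 12 d, against 13.6 ± 1.36 FPKM for *CiPaw.11G207000* (SD, n = 3 each). At 15 d it had 24.9 ± 3.02 FPKM, against 12.5 ± 1.75 FPKM for *CiPaw.12G140900*, the next gene (SD, n = 3 each). The summed FPKM of the 8 genes was between 66.2 and 81.9 at 15 d, and between 116 and 151 at 0 d. The clade III gene made up 34.2%, 38.2% and 29.0% of this sum in the libraries of 15 d, and 6.37%, 6.76% and 6.28% in those of 0 d. At 9 d its share was 28.1% in replicate 1 and 15.6% and 15.0% in the others. Of the 7 other *CBL* genes, 2 were called by limma as higher after 15 d, *CiPaw.09G110800* and *CiPaw.02G141100*, and 5 as lower, beside 22.1% and 34% of all genes. *CiPaw.02G141100* was near the floor, with 0 to 0.13 FPKM at 0 d and 1.39 to 5.47 FPKM at 15 d. *CiPaw.11G119600*, called as lower, had 0.26 to 0.36 FPKM at 15 d. The call of *CiPaw.12G140900* as lower (log2 fold change -0.39, adjusted p = 0.0421) was lost after median-ratio scaling (-0.06, adjusted p = 0.813) and after quantile normalization (-0.16, adjusted p = 0.469).

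**Figure D2:**
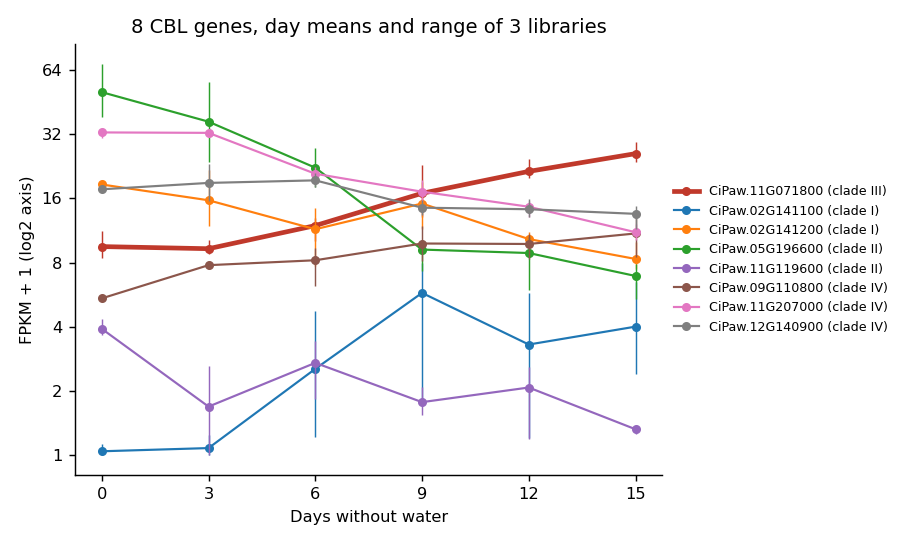
Mean FPKM + 1 of 8 *CBL* genes (y axis, log2 scale) against days without water (x axis), with vertical lines from the lowest to the highest of 3 libraries. The thick line of *CiPaw.11G071800* ranks 5 of 8 at 0 d, with 8.51 FPKM, meets the lines of clades I and IV at 9 d, and is first at 12 d and 15 d, with 20.4 and 24.9 FPKM.

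Ratios of *CBL* genes within a library are free of differences in library scaling. The ratio of *CiPaw.11G071800* to *CiPaw.11G207000* had a median of 2.46 at 15 d (2.14 to 2.84) and of 0.249 at 0 d (0.244 to 0.313). In between, the median was 0.261 on 3 d and 0.545 on 6 d, then 0.879 on 9 d and 1.56 on 12 d. At 9 d the ratio was 1.52 in replicate 1 and 0.879 and 0.651 in the other libraries, so that only replicate 1 was above 1. At 12 d and 15 d every library was above 1. Relative to *CiPaw.05G196600* (clade II) the ratio had a median of 4.34 at 15 d and of 0.183 at 0 d. Relative to *CiPaw.09G110800*, which was also called as higher, the ratio ranged from 1.99 to 3.77 at 15 d and from 1.65 to 2.33 at 0 d, and these ranges overlapped. At 3 d it ranged from 1.08 to 1.38, below every library of 0 d, 12 d and 15 d.

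Pearson correlations of FPKM with *CiPaw.11G071800* were computed over the 18 libraries for each of 20235 other genes that averaged 1 FPKM or more. All libraries of a day share a treatment, and the values of a library share its depth and scaling, so these correlations are a description and carry no p. An r of at least 0.6, the limit used in the coexpression network of the study, was found for 3950 genes (19.5%), and an r of -0.6 or lower for 6220 genes (30.7%). Positive ones thus made up 38.8% of both, whereas after median-ratio scaling there were 6194 positive and 4897 negative ones, and the positive ones made up 55.8%. Which sign was more frequent therefore depended on the scaling. On the deposited scale both signs together were 50.3% of the genes, and without 9 d replicate 1 they were 50.5%. For comparison, when each of the 20236 genes was taken in turn, the median share of partners was 26.7%, and 89.7% of the genes had fewer partners than *CiPaw.11G071800*. Of the assigned *CBL* genes, *CiPaw.11G207000* came closest to it, with 9775 partners against its 10170, and *CiPaw.02G141100* had the fewest, 644. An r of 0.9 or higher was found for 481 genes and of -0.9 or lower for 291.

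When the mean of each day was subtracted, which leaves 12 free values, the picture changed. An r of at least 0.6 then remained for 1238 of the 3950 genes (31.3%), which made up 66.9% of the 1850 genes with such an r within days. An r of -0.6 or lower was found in both ways for 712 genes, 11.4% of those over all libraries and 74.5% of the 956 within days. Partners made up 13.9% of all genes within days, against a median of 15.4% when each gene was taken in turn, and 44.2% of the genes had fewer. The high number of partners of *CiPaw.11G071800* over all libraries was thus not found after day means were removed.

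**Figure D3:**
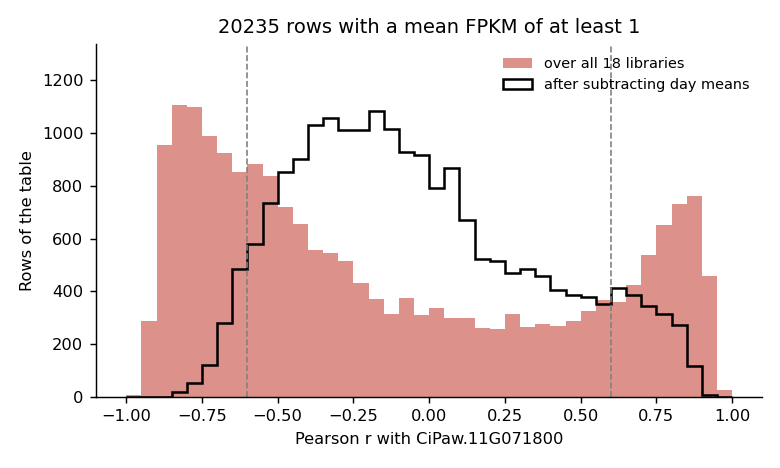
Number of genes (y axis) by Pearson r with *CiPaw.11G071800* (x axis, bins of 0.05) over all 18 libraries (filled) and after day means were subtracted (line), for 20235 genes; dashed lines mark an r of 0.6 in size. Over all libraries the genes gather at both ends, with 50.3% beyond the dashed lines, whereas within days 13.9% lie beyond them.

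The correlations within days rested largely on 1 library. The deviation of 9 d replicate 1 from its day mean, 6.04 FPKM, made up 36.6% of the sum of squares of *CiPaw.11G071800* within days, and 9 d replicate 3, at -3.80 FPKM, made up 14.5%. They were followed by 15 d replicate 2 (3.42 FPKM, 11.8%) and 12 d replicate 1 (3.09 FPKM, 9.58%). Without 9 d replicate 1, an r of at least 0.6 within days was found for 641 genes and of -0.6 or lower for 58. Of the 1850 genes counted with it, 491 (26.5%) were also among these 641 genes, of which they made up 76.6%. The number with an r of -0.6 or lower within days was also 2336 without 12 d replicate 3 and 1490 without 15 d replicate 1.

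The genes with the profiles most like that of *CiPaw.11G071800*, or most opposed to it, were looked at next. The files do not pair their identifiers with names, so nothing is said of what they encode. The highest r over all libraries was 0.969, for CIL1171S0041, which also ranked 1 by Spearman rho, at 0.975. By r of log2(FPKM + 1) it ranked 6. It had 23.47, 26.83 and 22.72 FPKM at 15 d, against 5.38, 7.89 and 7.27 FPKM at 0 d. At 9 d it had 18.06 FPKM in replicate 1, against 13.15 and 11.33 in the others. In both genes, replicate 1 was the highest library of 9 d. Next was CIL1167S0055, with an r of 0.968, which ranked 13 by Spearman rho. It had 183.07 to 219.06 FPKM at 15 d and 23.06 to 28.68 FPKM at 0 d. At 9 d it had 163.22 FPKM in replicate 1, and 60.54 and 53.52 FPKM in the others. Within days their r was 0.850 and 0.822, and without 9 d replicate 1 it was 0.811 and 0.644. Over all libraries, with any one library left out, r stayed between 0.959 and 0.983 for CIL1171S0041 and between 0.961 and 0.984 for CIL1167S0055.

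The lowest r was -0.956, for CIL1056S0011. This gene had 14.76, 16.06 and 22.20 FPKM at 15 d, against 118.41, 109.34 and 108.44 FPKM at 0 d. At 9 d it had 26.80 FPKM in replicate 1, and 79.92 and 92.97 FPKM in the others. At 12 d it had 29.96, 87.50 and 46.35 FPKM, so that replicate 2 lay near the level of 9 d replicates 2 and 3. At 9 d and 12 d its lowest library, replicate 1, was the highest of the clade III gene, whereas at 15 d replicate 1 was the lowest library of both. CIL1304S0016 followed with an r of -0.955, and had 5.21 to 9.13 FPKM at 15 d and 27.37 to 29.40 FPKM at 0 d. Ranked by Spearman rho, these genes were not the lowest but at places 35 and 122 from the lowest. By r of log2(FPKM + 1) they were at places 340 and 300 from the lowest. Their r within days was -0.777 and -0.618, and without 9 d replicate 1 it was -0.519 and -0.439.

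**Figure D4:**
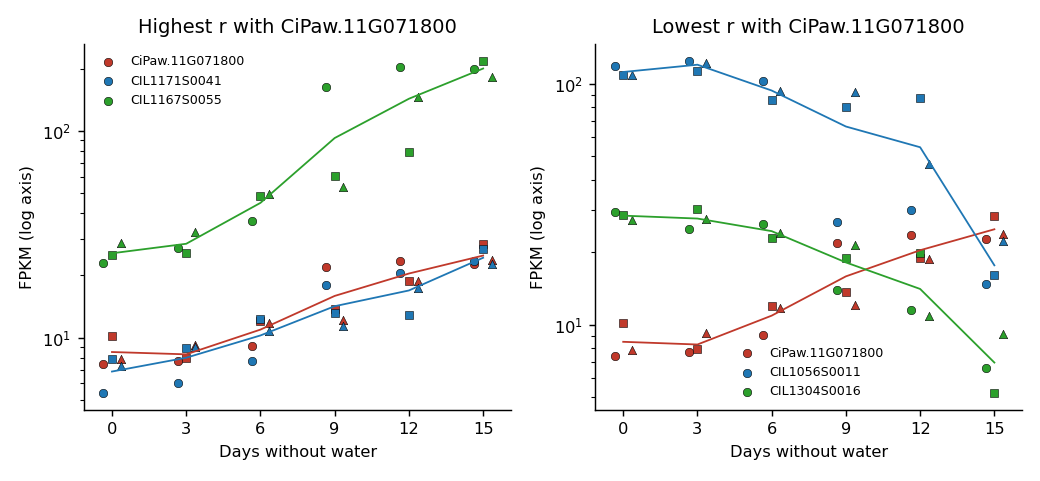
FPKM (y axis, log scale) against days without water (x axis) for *CiPaw.11G071800* and the genes with the highest (left) and lowest (right) r with it over 18 libraries; points are libraries (circles replicate 1, squares replicate 2, triangles replicate 3) and lines join day means. At 9 d, replicate 1 is the highest or lowest library of its day in all 5 genes, high in CIL1171S0041 (18.06 FPKM) and CIL1167S0055 (163.22 FPKM) and low in CIL1056S0011 (26.80 FPKM) and CIL1304S0016.

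Within days the highest r with *CiPaw.11G071800* was that of CIL1429S0033, 0.950, against 0.855 over all libraries, where it was at place 1156. It had 47.52, 33.00 and 32.39 FPKM at 9 d and 46.32, 33.21 and 35.63 FPKM at 12 d. At 15 d it had 32.21, 41.73 and 31.70 FPKM. Its highest library was also the highest library of the clade III gene on 5 of 6 days, all but 6 d. Its r within days stayed between 0.911 and 0.961 with any one library left out. CIL0967S0007 followed with an r of 0.928 within days, which stayed between 0.861 and 0.964.

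*CIPK* genes encode the kinases that CBL proteins attach to, and 9 of them could be assigned to rows. They had been picked for values given earlier, most of them for a change under drought, and are not a fair sample of the *CIPK* genes, so their counts are given as a description. All 9 were called at 15 d against 0 d, 5 as higher and 4 as lower, where 56.1% of all genes were called. The call of *CiPaw.03G245300* as lower did not hold once libraries were scaled by median ratios (-0.14 on the log2 scale, adjusted p = 0.340). Over all libraries all 9 had an r of at least 0.6 in size with *CiPaw.11G071800*, 5 positive and 4 negative, where 50.3% of all genes had one. Of the 7 other *CBL* genes, 5 had such an r, which was positive for *CiPaw.09G110800* (0.642) and negative for 4, the lowest being *CiPaw.11G207000* (-0.861). The highest r of a *CIPK* gene over all libraries was that of *CiPaw.07G161900* (clade D), 0.859. It was at place 1106 of 20235 genes, so 94.5% of genes had a lower r. The lowest was that of *CiPaw.02G069100* (clade A), -0.807, and 10.8% of the genes had a lower one. Without 9 d replicate 1 the lowest was *CiPaw.08G037800* (clade B), at -0.800, against -0.795 for *CiPaw.02G069100*, and the highest was still *CiPaw.07G161900*, at 0.855. None of the assigned genes had an r of 0.9 or more in size over all libraries. Few of the 20235 genes did, 481 with 0.9 or higher and 291 with -0.9 or lower.

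Within days the order was different. *CiPaw.02G118000* (clade E) had an r of 0.861 within days and was at place 75, above 99.6% of the genes. It had 141.38, 11.99 and 22.97 FPKM at 9 d and 124.94, 38.24 and 67.43 FPKM at 12 d. At 15 d it had 55.95, 74.58 and 55.47 FPKM. On these days and at 3 d its highest library was that of *CiPaw.11G071800*. At 0 d it was lowest, at 6.41 FPKM, in the library where the clade III gene was highest, and at 6 d it was highest in replicate 3 (31.06 FPKM), against replicate 2 for the clade III gene. Without 9 d replicate 1 its r within days was 0.657, and that of *CiPaw.07G161900* was 0.594, against 0.577 with it. Of the *CBL* genes, none of the 7 had an r of 0.6 or more in size within days, where 13.9% of all genes had one. The value farthest from 0 was -0.584, for *CiPaw.02G141100*, which was -0.159 without 9 d replicate 1.

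**Figure D5:**
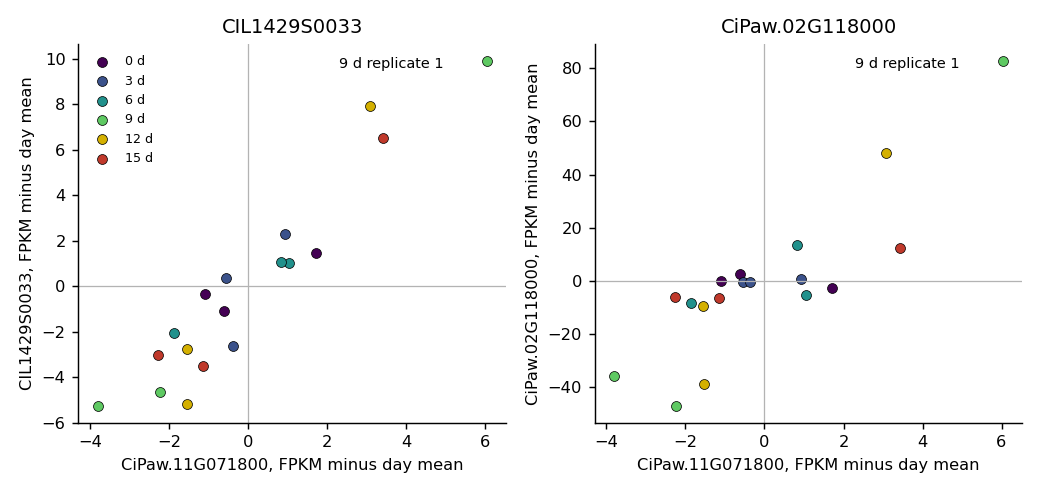
Deviation of each library from its day mean in FPKM for *CiPaw.11G071800* (x axis) and for CIL1429S0033 (left y axis) and *CiPaw.02G118000* (right y axis); colours give the day, with 3 points per day. The point of 9 d replicate 1 lies farthest out, at 6.04 FPKM for *CiPaw.11G071800*, and r within days is 0.911 on the left and 0.657 on the right without it.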

How the data were processed

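The authors extracted leaf RNA, sequenced cDNA libraries on an Illumina NovaSeq and deposited FPKM, computed with RSEM and rounded to 2 decimals. The submitters' processing notes also name fastp 0.18.0, Bowtie2 2.2.8, HISAT2 and StringTie 1.3.1, and the genome build and annotation are not given in the sources used here. Because RSEM splits fragments among similar transcripts, values of close *CBL* copies are uncertain. The name of each column gave its library, with 0 columns unused. The table holds no CiPaw names. CIL1012S0079 and 16 other *CBL* and *CIPK* rows were named earlier, by matching their day means by hand to means given for the named genes. Their day means are therefore not independent of the names.

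Values were taken as log2(FPKM + 1). Genes averaging 0.1 FPKM or more entered a fit by limma 3.58.1 (R 4.3.3) of 1 mean per day over 18 libraries, with an eBayes trend and two-sided Benjamini-Hochberg adjusted p. With 3 libraries against 3 an exact test cannot go below p = 0.1. Libraries are biological repeats, and a library pools plants. Correlations used linear FPKM and genes with a mean of at least 1 FPKM (Python 3.11.15, numpy 2.4.6, pandas 2.3.3, matplotlib 3.10.9). The limma fit and the depth estimate were tested on simulated data. Only relative depth could be estimated, from 2966 genes of low FPKM. 98.0% of library pairs lay within 0.05 (log2) of the fitted depths.

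Named genes were the 2 highest and 2 lowest r over all libraries, the 2 highest within days, the assigned *CBL* genes, and the *CIPK* genes with the highest and lowest r over all libraries and the highest within days. The gene, the lists and the tests were chosen with earlier results of these data known. Alternatives were another pseudocount, other filters and scalings, eBayes without a trend, a fit of only the days compared, a replicate block, each library left out, the log scale, Spearman correlation and a limit of 0.8 on r. The *CBL* order, ratios and shares without 9 d replicate 1 were added after seeing the data.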

Additional observations from a re-analysis of the deposited data

How the results depend on the processing

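The log2 fold changes of *CiPaw.11G071800* at 12 d and 15 d kept their direction and call in all 26 alternatives, and at 15 d the value was 1.36 to 1.58 when one library was left out and 1.80 after median-ratio scaling. At 9 d the call was lost after median-ratio scaling (0.67) and with only the days compared (0.80), and the fits without one library gave 0.56 to 0.96. At 3 d, where the gene was not called, these fits gave -0.11 to 0.10, with a sign that turned without 0 d replicate 2, 3 d replicate 1 or 3 d replicate 2. Labels number the replicates of each day, but same-numbered libraries did not deviate together (median r of -0.04 over 45 pairs), and 5 of 18 libraries correlated best with their own number. With the replicate number as a block, the log2 fold change at 15 d stayed 1.45 (adjusted p = 1.35e-04), the number of genes called at 15 d was 13573 against 13708, and no call of *CiPaw.11G071800* changed.

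The number of genes with an r of at least 0.6 over all libraries was 6194 after median-ratio scaling and 1975 with a limit of 0.8, and 3804 to 4130 without one library. The number with an r of -0.6 or lower was 2354 with the limit of 0.8, and 5509 to 6782 without one library. Within days, the positive count was 3533 after median-ratio scaling, 393 with the limit of 0.8 and 641 to 2579 without one library. The negative count was 356 by Spearman rank correlation, 20 with the limit of 0.8 and 58 to 2336 without one library. The cause of these shifts was not tested.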

Other observations

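Among the rows within 3 serial numbers of CIL1012S0079 on the same scaffold number, 4 are in the table. Their r with *CiPaw.11G071800* over all libraries lay between -0.55 and -0.24, and 2 of them had a mean FPKM below 1. The median r over the 20235 genes that averaged 1 FPKM or more was -0.33, which lies within this range. CIL1012S0081, the row with the highest mean of these, 14.2 FPKM, ranged from 4.87 to 26.04 FPKM.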
